A study of Mus musculus with 8 samples.

Results

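Cohesin is a ring of proteins that holds sister chromatids together, and 10 mouse genes of its subunits and regulators were followed through male germ cell development. All probe sets annotated to 1 of these genes and to no other gene were taken, which gave 25 of 45037 probe sets without controls, for 10 of 18193 genes that a probe set names alone. Stag1 had 6 probe sets, Rad21, Smc1a, Pds5a and Pds5b had 3 each, Stag2 and Smc3 had 2 each, and the meiotic genes Rec8, Stag3 and Smc1b had 1 each. Germ cells of BL/6-129 mice were studied at 4 stages, namely spermatogonia of type A, spermatogonia of type B, spermatocytes in pachytene and round spermatids. No treatment or mutation is named for any group. The sources used here do not give the age of the mice, the way the cells were separated or the number of animals per preparation. Each stage was measured on 2 Mouse 430 2.0 arrays from independent germ cell preparations, so p-values measure the spread between preparations.

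The cohesin ring is built from a pair of SMC proteins closed by a kleisin, with a STAG protein bound to the kleisin. Dividing cells use SMC1A, SMC3, RAD21 and STAG1 or STAG2, and PDS5A or PDS5B regulates how long the ring stays on chromatin. Meiotic cells add the subunits REC8, STAG3 and SMC1B, which build the axis of meiotic chromosomes and keep sister chromatids together until the meiotic divisions. Type A and type B spermatogonia divide by mitosis, pachytene spermatocytes are in the prophase of meiosis I, and spermatids are haploid cells that no longer divide.

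The upstream sequences of the meiotic genes are shown because these genes did not move together. RefSeq's promoter table (build GRCm38.p6) held 8 of the 10 genes. Each sequence runs from 150 bases before the listed transcript start to 10 bases after it, in the direction of the gene. As listed by RefSeq, the genes Rec8, Stag3 and Stag1 begin upstream of that start, at bases 55618002, 138272514 and 100597709. In Stag3 and Stag1 the sequence searched does not reach that base. Capitals mark TCCCGC, the core of the binding sequence of E2F cell cycle factors.
Rec8 (chr14:55618016-55618175, plus strand): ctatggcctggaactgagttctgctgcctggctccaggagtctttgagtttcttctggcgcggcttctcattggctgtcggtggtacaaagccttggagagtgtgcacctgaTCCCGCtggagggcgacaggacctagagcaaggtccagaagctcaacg
Stag3 (chr5:138280359-138280518, plus strand): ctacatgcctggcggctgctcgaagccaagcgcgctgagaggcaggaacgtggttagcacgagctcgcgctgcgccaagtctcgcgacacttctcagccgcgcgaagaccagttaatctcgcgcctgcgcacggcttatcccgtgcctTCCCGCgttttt
Smc1b (chr15:85131948-85132107, minus strand): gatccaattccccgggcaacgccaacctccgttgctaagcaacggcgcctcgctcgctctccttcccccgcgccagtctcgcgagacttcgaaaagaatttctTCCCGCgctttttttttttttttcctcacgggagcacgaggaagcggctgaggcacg
Stag1, a mitotic counterpart of Stag3 (chr9:100643298-100643457, plus strand): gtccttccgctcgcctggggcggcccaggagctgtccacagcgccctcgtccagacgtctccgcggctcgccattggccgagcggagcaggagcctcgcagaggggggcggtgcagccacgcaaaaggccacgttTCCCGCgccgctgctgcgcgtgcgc

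TCCCGC began 38 bases before the start in Rec8, 2 before it in Stag3, 47 before it in Smc1b and 15 before it in Stag1. Searched on both strands in the full window of 250 bases before to 50 after the start, it was found in 8 of 8 cohesin promoters and in 20.0% of the 32851 promoters of the table. The E-box CACGTG, whose letters read the same on both strands, was in Stag3 alone of the 8, against 7.2% of all promoters. CAACNG, the core of Myb sites, was in Smc1a and Smc1b, and CCTCAG, a core of Stra8 sites, was in Smc1b and Pds5b, against 35.0% and 26.8% of all promoters. A match says only that these letters are present.

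The deposited values are MAS5 signals on a linear scale, scaled by the authors to the same trimmed mean of 125.0 on each array, and the median signal ran from 33.7 to 51.9. All 25 cohesin probe sets passed the filter of lying above the array's median on at least 2 of 8 arrays. Log2 changes below are of signal + 16, with the standard error of a limma fit over 28623 probe sets. They understate the change of low signals. Type B replicate 2 stood apart: its summed signal over 6 spermatid markers was 1501 and that of replicate 1 was 78.5, against 2143 to 2610 on the pachytene arrays. Type A cells were therefore used as the first comparison for pachytene cells. The fit pools the spread over all 4 stages, so the gap between the type B replicates enters the p-values of that comparison too. The summed signal of 6 spermatogonial markers was 420.3 to 480.3 in pachytene cells and 4550 to 4809 in type A cells, and that of the spermatid markers was 22232 to 26111 in spermatids. That of 6 spermatocyte markers was 15398 to 16128 in pachytene cells, 1850 to 2144 in type A cells and 16524 to 16931 in spermatids, so it did not set pachytene cells apart from spermatids. It was 8778 in type B replicate 2 and 3252 in replicate 1. Markers of other cell types moved along the same comparison. The sum of 5 stromal markers was 649.2 to 835.6 in pachytene cells and 7473 to 9830 in type A cells, and all 5 fell. The sum of 7 Sertoli cell markers was 852.4 to 957 in pachytene cells and 2092 to 2825 in type A cells, and 6 of 7 fell. That of 5 macrophage markers was 211.1 to 220.9 in pachytene cells and 516.1 to 607.7 in type A cells, and 3 of 5 fell. The sum of 4 Leydig cell markers overlapped, at 516.8 to 945 in pachytene cells and 630.9 to 1167 in type A cells, and 1 of 4 fell. No marker of these lists was at 0 on any array, but a signal above 0 does not show that a cell type was present. On each pachytene array 2 of 5 stromal, 1 of 7 Sertoli and 3 of 5 macrophage markers lay below the array median. The part of these cell types in the results below was not tested. In samples that may be mixed, fewer cells of a type and less RNA per cell cannot be told apart.

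Rec8, the kleisin of meiotic cohesin, was lowest in pachytene cells and highest in round spermatids. Its signal was 85.8 and 78.2 in type A, 111.6 and 86.9 in type B, 24.8 and 3.6 in pachytene cells, and 680.4 and 638.5 in spermatids. Both pachytene values lay below the median of their arrays, and both spermatid values lay above every other array. The order was spermatids, then type B and type A, then pachytene cells, and type B and type A did not differ beyond their spread (0.23 ± 0.33 log2, adjusted p = 0.845). Against type A, Rec8 fell by 1.79 ± 0.33 log2 in pachytene cells (adjusted p = 0.00248). Against pachytene cells it rose by 4.58 ± 0.33 in spermatids, a size that depends on the pseudocount because the pachytene signals are so low (adjusted p = 0.000134). With a pseudocount of 64 the rise was 3.22, and with a pseudocount of 1 it was 5.92.

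Stag3, the meiotic STAG subunit, was highest in pachytene cells. Its signal was 760.5 and 691.3 in type A, 1108 and 859.8 in type B, 2356 and 2107 in pachytene cells, and 1932 and 1593 in spermatids. All pachytene and spermatid values lay above all spermatogonial values. Against type A it rose by 1.60 ± 0.22 log2 in pachytene cells (adjusted p = 0.000641), and against type B by 1.18 ± 0.22 (adjusted p = 0.00325). Spermatids and pachytene cells were -0.34 ± 0.22 apart (adjusted p = 0.308, 95% interval -0.85 to 0.17), and type B and type A 0.42 ± 0.22 (adjusted p = 0.62).

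Smc1b, the meiotic partner of SMC3, passed the test in none of the 4 comparisons. Its signal was 446.3 and 380.9 in type A, 685.1 and 250.7 in type B, 702.9 and 556.9 in pachytene cells, and 803.6 and 658.2 in spermatids. The type B replicates lay on either side of the type A ones, while all pachytene and spermatid values were above type A. The change was 0.58 ± 0.41 log2 in pachytene cells against type A (limma adjusted p = 0.26, 95% interval -0.37 to 1.54). That standard error pools the spread of all 4 stages, and the type B replicates lay furthest apart. Against type B it was 0.57 ± 0.41 (adjusted p = 0.284), 1.27 when type B replicate 1 was left out (adjusted p = 0.00913), and -0.13 when type B replicate 2 was (adjusted p = 0.728).

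**Figure D1:**
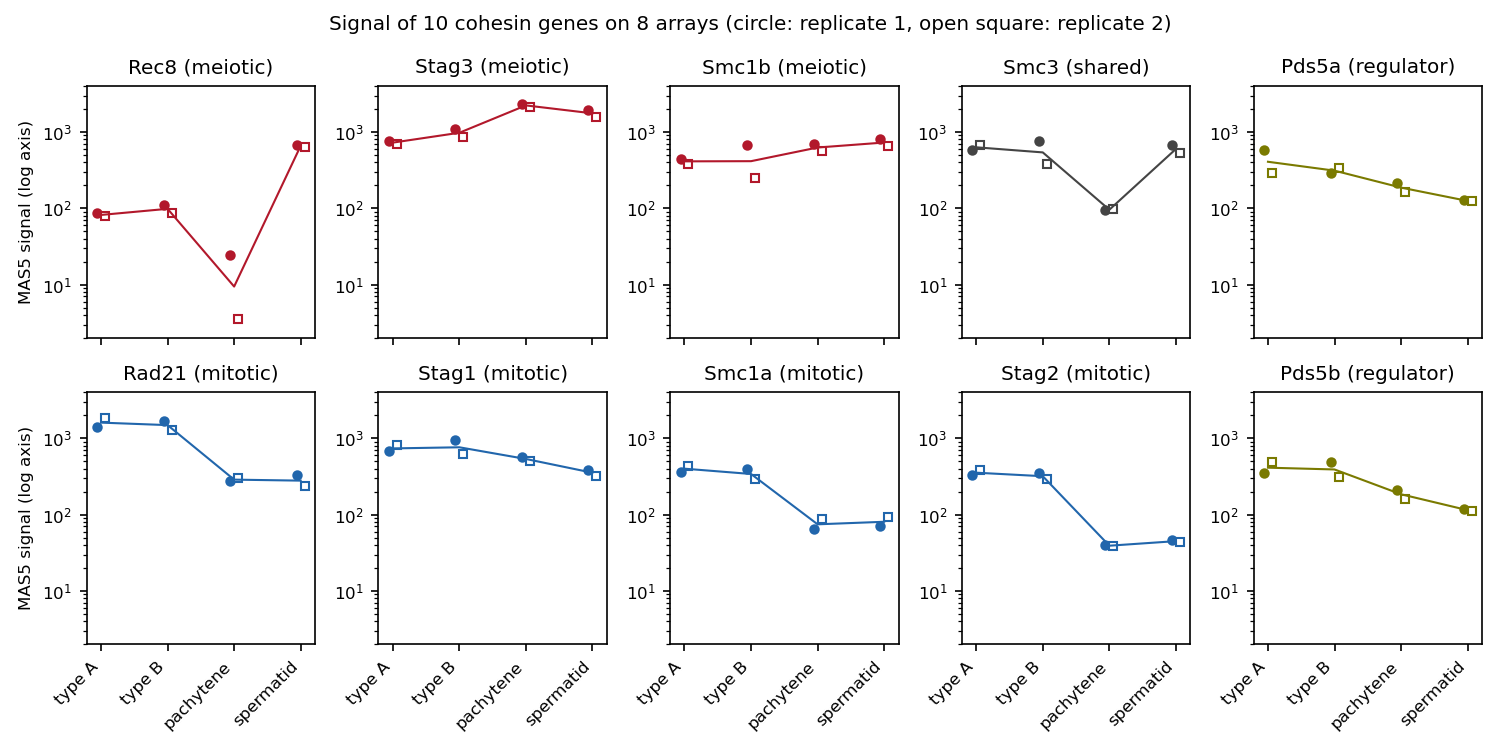
MAS5 signal (log axis) of the probe set with the highest mean for each of 10 cohesin genes, by stage, with 1 point per array and lines through the geometric means of 2 arrays. Rec8 dips to 24.8 and 3.6 in pachytene cells and reaches 680.4 and 638.5 in spermatids, Stag3 peaks in pachytene cells, and Rad21, Smc1a and Stag2 stay low after the spermatogonial stages.

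Over all 25 probe sets, 18 were lower and 1 higher in pachytene cells than in type A cells. The background is high: of all probe sets tested, 34.7% were lower and 22.0% higher in that comparison. The median change was -1.09 log2 over the cohesin probe sets and -0.27 over all tested. Against type B, 13 were lower and 1 higher, with a background of 29.5% and 20.3% and medians of -1.02 and -0.14. The lower count against type B rose without type B replicate 2, and it fell without replicate 1, where the higher count rose. Of all probe sets tested, a smaller share was lower in both settings.

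How the arrays are scaled bears on these counts. Scaling on the 75th percentile moved the median of all probe sets by 0.35 log2 in pachytene against type A cells, and quantile normalization by 0.25. The share of all calls that were higher was 38.8% as deposited, 54.2% on the 75th percentile and 48.8% after quantile normalization. Against type B the shifts were 0.29 and 0.17 log2, and that share was 40.8% as deposited, 56.6% on the 75th percentile and 50.2% after quantile normalization. The cohesin counts against type A were 10 lower and 1 higher on the 75th percentile, and 14 lower and 1 higher after quantile normalization. Of all 28623 probe sets tested, 25.2% were lower and 8518 higher on the 75th percentile. After quantile normalization 27.7% were lower and 7545 higher. Without pachytene replicate 2 fewer cohesin probe sets were called lower on the deposited scale, and so were fewer of all probe sets tested. Rec8, Stag3, Stag2, both stronger probe sets of Rad21 and of Smc1a, and Smc3 1450950_at kept their calls in pachytene against type A cells under all 15 alternatives, as did Pds5b 1436161_at.

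Rad21, the kleisin of mitotic cohesin, was far lower after the spermatogonial stages on its strongest probe set. On 1416161_at its signal was 1400 and 1839 in type A, 1700 and 1303 in type B, 273 and 302.6 in pachytene cells, and 330.3 and 235.5 in spermatids. No later array reached any spermatogonial one. It fell by 2.42 ± 0.26 log2 in pachytene against type A cells (adjusted p = 0.000258), and 1455938_x_at, of a class whose probes can also match other transcripts, fell by 2.49 ± 0.25 (adjusted p = 0.000216). The third probe set, 1416162_at, fell by 1.67 ± 0.49 (adjusted p = 0.0197), a call lost without type A replicate 2 (adjusted p = 0.107), without pachytene replicate 1 (0.0985) or with scaling on the 75th percentile (0.0575).

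Stag2, an X-linked mitotic STAG subunit, was lower in pachytene cells on both of its probe sets. On 1421849_at its signal was 326.3 and 384.8 in type A, 347.5 and 292.3 in type B, 40.1 and 38.3 in pachytene cells, and 46.3 and 43.7 in spermatids. It fell by 2.75 ± 0.20 log2 in pachytene against type A cells (adjusted p = 0.000138), and 1450396_at, below the array median in pachytene cells, fell by 3.16 ± 0.34 (adjusted p = 0.000262).

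Smc1a, the X-linked SMC1 of dividing cells, had a signal on 1417830_at of 363.8 and 439.8 in type A, 398.1 and 291.8 in type B, 64.3 and 86.8 in pachytene cells, and 70.3 and 92.5 in spermatids. The later arrays again did not overlap the spermatogonial ones. It fell by 2.20 ± 0.25 log2 in pachytene against type A cells (adjusted p = 0.000321), and 1417831_at fell by 2.13 ± 0.21 (adjusted p = 0.000214). The weakest probe set, 1417832_at, was at -0.84 ± 0.47 (adjusted p = 0.158), and at -1.62 without type A replicate 1 (adjusted p = 0.00633). Of all 783 X-linked probe sets tested, 73.9% were lower and 3.32% higher in pachytene than in type A cells, and 70.2% lower and 1.79% higher than in type B cells, so the falls of Stag2 and Smc1a are the common direction of that chromosome.

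Stag1, the autosomal mitotic STAG subunit, was called lower in pachytene than in type A cells on 5 of 6 probe sets, with calls kept in 4 to 10 of 15 alternatives. On its strongest probe set, 1431921_a_at, the signal was 671.9 and 808.5 in type A, 944.7 and 615.5 in type B, 575.2 and 499.5 in pachytene cells, and 388.9 and 322.4 in spermatids. Each later array lay below each spermatogonial one, but the pachytene change against type A was -0.45 ± 0.26 log2 (adjusted p = 0.175). The other 5 probe sets had changes between -1.05 ± 0.35 and -0.59 ± 0.20 and were called lower (adjusted p = 0.0329 and 0.0318 at these ends), and none of the 5 passed with scaling on the 75th percentile or without pachytene replicate 2. Only 1450420_at was called lower in spermatids than in pachytene cells, with a fall to 60.3 and 71.4 in spermatids, against 152 and 141.9 in pachytene cells (fold 1.99, adjusted p = 0.0074). Leaving out pachytene replicate 1 or spermatid replicate 1 ended that call (adjusted p = 0.0597 and 0.0569).

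Smc3, the SMC protein common to mitotic and meiotic rings, fell in pachytene cells and was high again in spermatids on its stronger probe set. On 1450950_at its signal was 587.4 and 675.2 in type A, 756.5 and 385.3 in type B, 93.7 and 98 in pachytene cells, and 668.2 and 535.4 in spermatids. Only the pachytene arrays stood apart. Against type A it fell by 2.53 ± 0.31 log2 (adjusted p = 0.000416), and the rise in spermatids against pachytene cells was 2.46 ± 0.31 (adjusted p = 0.00107). The other probe set, 1450951_at, stayed between 32.9 and 65.2 on all 8 arrays and passed in no comparison, with -0.23 ± 0.25 in pachytene against type A cells (adjusted p = 0.459), a sign that turned with scaling on the 75th percentile and with quantile normalization.

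The regulators Pds5a and Pds5b were each called lower in pachytene than in type A cells on 2 of 3 probe sets. Against type B, 1 of 3 Pds5a and 2 of 3 Pds5b probe sets were called lower. No probe set of either gene was called between spermatids and pachytene cells. Pds5b on 1435242_at read 348.6 and 487.6 in type A, 493 and 309.5 in type B, 212.6 and 160.7 in pachytene cells, and 117.2 and 111.7 in spermatids. It fell by 1.09 ± 0.29 log2 in pachytene against type A cells (adjusted p = 0.0123), and 1436161_at fell by 1.48 ± 0.25 (adjusted p = 0.00165), while 1441553_at was at -0.11 ± 0.25 (adjusted p = 0.717), a sign that turned with the same rescalings. The first call was lost without type A replicate 2 (adjusted p = 0.0666), without pachytene replicate 2 (0.0843) or on the 75th percentile (0.0774). Pds5a on 1425082_s_at read 576.6 and 287.5 in type A, 288.1 and 336.6 in type B, 213.3 and 163.6 in pachytene cells, and 127 and 122.9 in spermatids. Its type A replicates differed about as much as type A and pachytene cells did. It fell by 1.06 ± 0.32 (adjusted p = 0.0222), a call lost without type A replicate 1 (adjusted p = 0.115), without pachytene replicate 2 (0.124) or on the 75th percentile (0.101). Pds5a 1442731_at fell by 1.81 ± 0.50 (adjusted p = 0.0159, and 0.0975 without type A replicate 1 or 0.108 without pachytene replicate 2). Pds5a 1441238_at was at -1.17 ± 0.58 (adjusted p = 0.117), or -2.06 without type A replicate 2 (adjusted p = 0.0104).

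**Figure D2:**
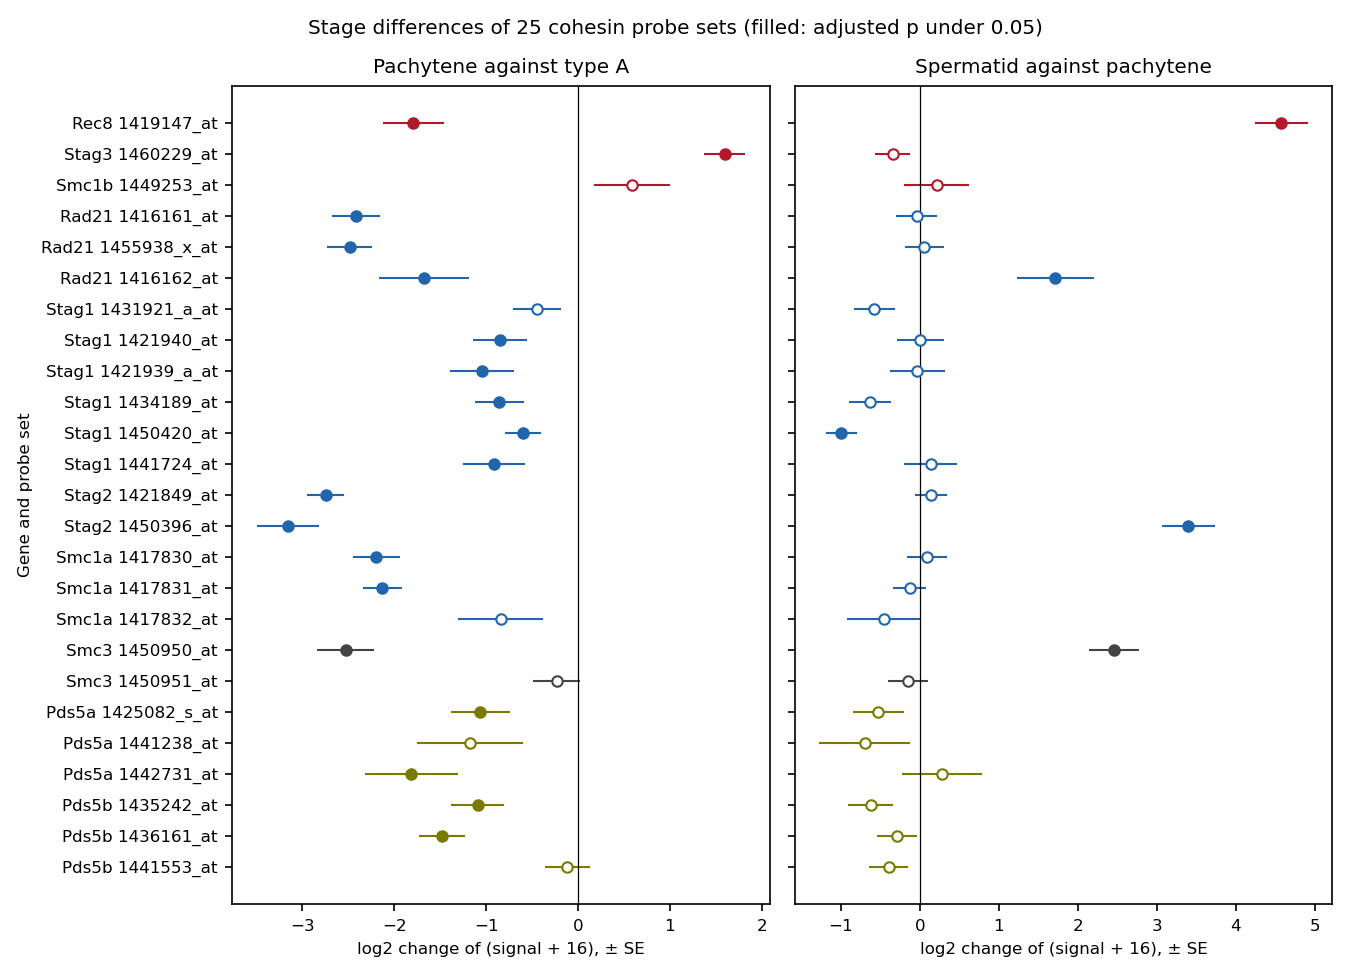
Log2 change of signal + 16 with its standard error for each of 25 cohesin probe sets, pachytene against type A on the left and spermatid against pachytene on the right, filled where the limma adjusted p was under 0.05. On the left 18 points are filled below 0 and 1, Stag3, above it. On the right 4 are filled above 0, led by Rec8 at 4.58, and 1 below it.

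Between spermatids and pachytene cells, 4 cohesin probe sets were higher and 1 lower, with a background of 11.7% higher and 15.7% lower. The median was -0.04 log2 over the cohesin probe sets and -0.09 over all tested. The 4 were Rec8, Smc3 1450950_at, Stag2 1450396_at and Rad21 1416162_at. These same 4 of 25 had been lower in pachytene than in type A cells, a fall and rise called for 4.13% of all probe sets and for 16.6% of X-linked ones. Of the X-linked probe sets, 24.0% were higher and 6.39% lower in spermatids than in pachytene cells. Cell type markers moved here too. In spermatids 3 of 6 spermatogonial markers rose (Dmrt1, Kit and Stra8, by 1.20, 1.28 and 1.22 log2), with a sum of 851 to 871.9 in spermatids and 420.3 to 480.3 in pachytene cells. Of the macrophage markers 2 of 5 rose, with a sum of 418.6 to 438.8 in spermatids and 211.1 to 220.9 in pachytene cells, and 1 of 5 stromal markers, Col1a1, rose by 1.07, with sums that overlapped. All 4 Leydig cell markers fell, to a sum of 88.5 to 88.8 in spermatids, against 516.8 to 945 in pachytene cells. Of the Sertoli cell markers 3 of 7 fell, to a sum of 262.2 to 333.8 in spermatids, against 852.4 to 957 in pachytene cells. The part of these cells in the rise of the 4 probe sets was not tested.

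For Stag2, Rad21 and Smc3, probe sets of the same gene thus gave different results in spermatids. Stag2 1450396_at read 329.9 and 222.5 in spermatids and 14.2 and 8.5 in pachytene cells, a rise of 3.40 ± 0.34 log2 (adjusted p = 0.000377). Both pachytene signals lay below the array median, and the rise ran from 2.16 to 4.50 log2 over the alternatives, with the call kept in all 15. Stag2 1421849_at, which read 46.3 and 43.7 in spermatids, changed by 0.14 ± 0.20 (adjusted p = 0.665). Both list the same transcript accession in the platform annotation. Rad21 1416162_at read 420.1 and 358.8 in spermatids and 89.8 and 127.2 in pachytene cells, a rise of 1.72 ± 0.49 (adjusted p = 0.0342). The other Rad21 probe sets changed by -0.04 ± 0.26 and 0.05 ± 0.25 (adjusted p = 0.937 and 0.912). The Rad21 rise kept its call in 7 of 15 alternatives and ran from 1.40 to 1.93 log2 over them. Among others, the call was lost with quantile normalization, without either pachytene array and without either spermatid array.

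The within-array difference between such probe sets, chosen for testing after the values were seen, was compared over the 4 stages with an exact permutation test of the F statistic over 105 splits, whose smallest p is 0.00952. The p was 0.0381 for Rad21, 0.0571 for Stag2 and 0.0571 for Smc3, and 0.0686 for each after adjustment over 6 such differences. Where on the transcripts the probes lie was not analysed here.

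**Figure D3:**
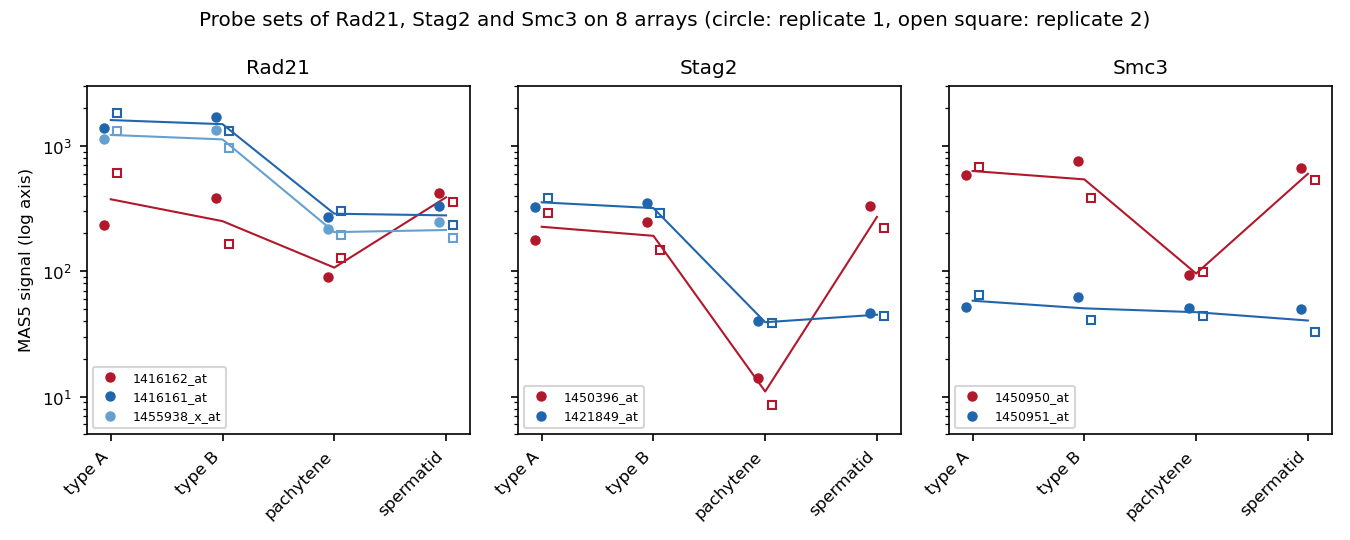
MAS5 signal (log axis) of each probe set of Rad21, Stag2 and Smc3 by stage, with 1 point per array and lines through the geometric means of 2 arrays. In spermatids 1416162_at, 1450396_at and 1450950_at are back near their spermatogonial signal, while the other probe sets of Rad21 and Stag2 stay near their pachytene signal and Smc3 1450951_at is low throughout.

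Each meiotic subunit was set against its mitotic counterpart by the difference of their log2(signal + 16) values within each array, which is less open to how arrays were scaled. The strongest probe set stood for each gene, and only the change of the difference between stages can be read. Such a change can come from either gene of a pair, and the counterparts Stag2 and Smc1a are X-linked. Stag3 minus Stag2 was 1.18 and 0.82 in type A, 1.63 and 1.51 in type B, 5.40 and 5.29 in pachytene cells, and 4.97 and 4.75 in spermatids. Stag3 minus Stag1 was 0.18 and -0.22 in type A, 0.23 and 0.47 in type B, 2.00 and 2.04 in pachytene cells, and 2.27 and 2.25 in spermatids. In both pairs the later arrays lay above all spermatogonial ones, with pachytene minus type A at 4.34 log2 for Stag3 to Stag2 and 2.05 for Stag3 to Stag1. The stages differed in both (exact permutation p = 0.00952, the smallest it can give, and 0.019 adjusted over 4 pairs). The spermatid values of Stag3 minus Stag2 depend on the probe set. The weaker Stag2 probe set, 1450396_at, read 329.9 and 222.5 in spermatids and 14.2 and 8.5 in pachytene cells. With it the spermatid difference would be smaller. With the mean of all Stag2 probe sets, pachytene minus type A was 4.55 log2 (exact permutation adjusted p = 0.0381). For Stag3 to Stag1 the adjusted p was 0.0635 without type B replicate 2 and 0.0508 with the mean of all Stag1 probe sets.

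Smc1b minus Smc1a was 0.28 and -0.20 in type A, 0.76 and -0.21 in type B, 3.16 and 2.48 in pachytene cells, and 3.25 and 2.64 in spermatids. Again no later array overlapped a spermatogonial one, and pachytene minus type A was 2.78 log2. The exact permutation test over the 4 stages gave p = 0.0667 (adjusted 0.0889). That test asks whether all 4 stages differ, so it does not test the step from spermatogonia to the later stages by itself. Rec8 minus Rad21 followed another course. It was -3.80 and -4.30 in type A, -3.75 and -3.68 in type B, -2.82 and -4.02 in pachytene cells, and 1.01 and 1.38 in spermatids. These values rest on the strongest Rad21 probe set. In spermatids against pachytene cells, Rad21 1416162_at rose by 1.72 ± 0.49 log2, while 1455938_x_at changed by 0.05 ± 0.25. In Rec8 minus Rad21, 1 pachytene array lay within the spermatogonial range and the other above it. Its spermatid arrays lay 4.62 log2 above pachytene cells, a step that the test over the 4 stages does not examine by itself. The exact permutation p was 0.0952, also after adjustment, and the adjusted p was 0.0127 when pachytene replicate 2 was left out.

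**Figure D4:**
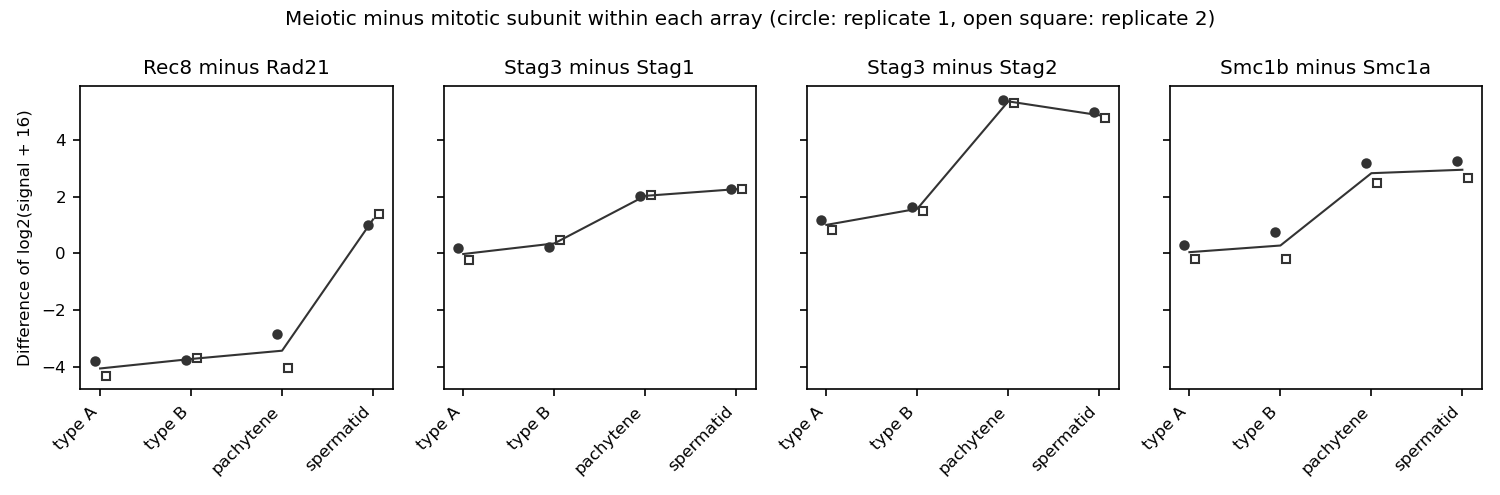
Difference of log2(signal + 16) between a meiotic subunit and its mitotic counterpart within each array, by stage, with 1 point per array and lines through the means of 2 arrays. On the strongest probe set of each gene, the STAG and SMC1 pairs step up in pachytene cells, and Rec8 minus Rad21 steps up in spermatids, to 1.01 and 1.38. A step can come from either gene of a pair.

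The meiotic subunits were also set against each other, in pairs chosen after the values were seen. No pair passed the test after adjustment over 6 differences. The smallest exact permutation p, 0.00952, becomes 0.0571 for a pair that reaches it alone, so such a pair could not pass. Rec8 minus Stag3 was -2.92 ± 0.02 in type A, -3.11 ± 0.04 in type B, -6.31 ± 0.63 in pachytene cells and -1.39 ± 0.13 in spermatids (SD, n = 2 each; exact permutation p = 0.00952, adjusted 0.0571). Rec8 minus Smc1b gave p = 0.0286 and Stag3 minus Smc1b p = 0.219 in the same exact permutation test (adjusted 0.0686 and 0.219).

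Type B and type A spermatogonia could not be told apart in any cohesin probe set. Limma called 0 of 25 in either direction, with a background of 0% in both, and the medians were -0.12 log2 over the cohesin probe sets and -0.06 over all tested. Without adjustment, 1121 probe sets of all tested were higher and 1201 lower at p under 0.05. When type B replicate 1 was left out, limma called 1053 higher and 80 lower of all tested, and still 0 of the cohesin probe sets. Of the cohesin probe sets, Smc1a 1417831_at, at 110 and 106 in type B and 187.3 and 151.4 in type A, had the lowest unadjusted p (-0.57 ± 0.21 log2, adjusted p = 0.613).

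Other genes linked to cohesin, 16 in all, included those that load, release, stabilise, acetylate, deacetylate, protect or cleave the ring. The rest were the boundary factors Ctcf and Ctcfl, the helicase Ddx11, and Rad21l, another meiotic kleisin. Named probe sets covered 14 of them, all but Rad21l and Ctcfl, and 13 passed the filter. Each gene was read only on its probe set with the highest mean, while the background counts all probe sets tested. In pachytene against type A cells 3 rose and 4 fell, near the background of 22.0% higher and 34.7% lower, with a median of 0.25 log2 over these genes and -0.27 over all tested. Esco2, the acetyltransferase that makes cohesion during DNA replication, fell by 3.01 ± 0.39 log2 (adjusted p = 0.000461), with 55.2 and 59.6 in pachytene cells and 513.6 and 646.4 in type A cells. Sgo1, which protects centromeric cohesin in mitosis, fell by 1.23 ± 0.25 (adjusted p = 0.00372). The boundary factor Ctcf, which stops cohesin on chromatin, fell by 1.09 ± 0.22 (adjusted p = 0.00339), and Cdca5, the mitotic cohesin stabiliser sororin, fell by 0.99 ± 0.27 (adjusted p = 0.0148).

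Nipbl, the cohesin loader, rose by 1.32 ± 0.26 log2 (adjusted p = 0.00346), and Pttg1, the securin that holds separase inactive, by 1.26 ± 0.19 (adjusted p = 0.000934). Espl1, the separase that cuts the kleisin, rose by 0.81 ± 0.26 (adjusted p = 0.0295). Against type B, 4 of the 13 rose and 4 fell, with a background of 20.3% and 29.5%. Against pachytene cells, 2 rose and 2 fell, with a background of 11.7% and 15.7%. Esco2 and the kinase Plk1 rose in spermatids by 1.5 ± 0.39 and 1.19 ± 0.20 (adjusted p = 0.0226 and 0.00405). There Sgo2a, which protects meiotic cohesin at centromeres, fell by 1.12 ± 0.27 and the helicase Ddx11 fell by 1.29 ± 0.24 (adjusted p = 0.0168 and 0.00584). Wapl, which releases cohesin, stayed between 754.3 and 997.2 on all 8 arrays (0.01 ± 0.24 in pachytene against type A, adjusted p = 0.967).

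The genes most like each meiotic subunit over the 8 arrays were listed as a description, from 16990 named probe sets whose highest and lowest stage means differed by at least 1 log2. For Rec8 they were Phlpp1, Btbd9 and Efhc2, with r = 0.998, 0.994 and 0.993. For Stag3 they were Phtf1, Trmt10a and Nol8, with r = 0.994, 0.992 and 0.989. For Smc1b they were Nxf1, Cybc1 and Pyroxd1, with r = 0.899, 0.883 and 0.882. The stage means of Smc1b itself differed by less than 1 log2, so genes as flat as Smc1b were not among the candidates. Cybc1 and Pyroxd1 lay below the array median on all type A and type B arrays. The arrays of a stage share that stage, so 8 points stand for 4 stages.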

How the data were processed

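The authors deposited 1 intensity per probe set and array, which the submitters' processing notes tie to MAS5, with no version or detection call in the sources used here. Of 45101 probe sets, 64 were controls, 34945 named 1 gene, 932 several and 9160 none in the platform annotation. Symbols were updated by Entrez identifier through a GRCm38.p6 RefSeq gene table (34741 matched), used only for names, chromosomes and the first bases of genes. Probe sets above their array's median on at least 2 of 8 arrays (28623) were tested as log2(intensity + 16) in R 4.3.3 by limma 3.58.1, fitting a mean for each stage to all 8 arrays with lmFit (4 residual degrees of freedom, prior 3.91), eBayes, two-sided, Benjamini-Hochberg over all probe sets in each of 4 comparisons, called at an adjusted p under 0.05. Differences within arrays were tested with an exact permutation test of F over the 4 stages.

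Precision is limited by the small number of arrays. The scripts were tested on simulated data. The members, the lists and the settings were chosen with earlier results of these data known. Named genes were all members, the pathway genes called in pachytene against type A cells with at least 1 log2 of change, and the 3 genes most like each meiotic subunit. Pathway genes outside that rule (Cdca5, Espl1, Plk1, Sgo2a, Ddx11, Wapl) and the pairs of meiotic subunits or of probe sets were chosen after their values were seen. Alternatives were pseudocounts of 64 and 1, quantile normalization, scaling on the 75th percentile, no filter, eBayes with trend, a replicate block, the mean of all probe sets of a gene, and leaving out each array. Replicate numbers were not taken as a pairing, which the labels do not state. The design text speaks of independent preparations, and deviations of same-numbered arrays correlated at -0.271 to 0.351 between stages. These values do not settle whether same-numbered preparations were paired. Rad21l and Ctcfl were not analysed here.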

Additional observations from a re-analysis of the deposited data

How the results depend on the processing

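Of 38 called stage differences of single cohesin probe sets, 23 kept direction and call under all 15 alternatives, none changed direction, and the other 15 were 8 of Stag1, 3 of Pds5a, 2 of Pds5b 1435242_at and 2 of Rad21 1416162_at. Scaling on the 75th percentile left 10 cohesin probe sets lower in pachytene against type A cells, where 18 were called. Of all probe sets tested, 25.2% were then lower in place of 34.7%. Leaving out single arrays gave 10 to 18 lower in that comparison, 1 to 2 higher in pachytene against type B cells and 0 to 1 lower in spermatids against pachytene cells. For the difference of Rec8 to Rad21, the adjusted exact permutation p was 0.0254 with a pseudocount of 64 and with quantile normalization, and 0.124 with a pseudocount of 1, where pachytene minus type A turned to -0.45 from 0.62 log2; leaving out arrays gave 0.0127 to 0.133. For Stag3 to Stag1 it was 0.0508 with the mean of all probe sets, and leaving out arrays gave 0.0127 to 0.0635. With a pseudocount of 64 pachytene minus type A in the Stag2 probe set difference turned to 0.07 from -0.41 log2 (exact permutation adjusted p = 0.149). The replicate block, which assumes a pairing that the labels do not state, gave 16 lower in pachytene against type A cells and an adjusted p of 0.0833 for both Stag3 pairs, with few permutations within blocks. No other count moved by over 1.5 times. The causes of these shifts were not tested. No detection call was used, so signals below the array median, such as Rec8 and Stag2 1450396_at in pachytene cells, set no exact size of change.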
